A study of Mus musculus with 4 samples.

Results

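Hepcidin and 9 other genes of iron handling were followed in 4 mouse tumours: Hamp, Hamp2, Hfe, Tfr2, Tfrc, Trf, Slc40a1, Fth1, Ftl1 and Ireb2. They were taken by gene symbol from the count tables, and all 10 have a row among 24063 gene symbols. The tumours bear the numbers 1, 5, 9 and 10 and 1 genotype label, MYC;PMEPA1 overexpression, in mice given as C57BL6/J in the titles and C57BL/6 in the strain field, after hydrodynamic tail vein delivery, which reaches hepatocytes above all. MYC is an oncogenic transcription factor, and PMEPA1 sits in membranes and restrains TGF-beta signals. The labels give 8 to 10 passages, no age, no treatment and no word on whether each tumour came from its own animal. With 1 group and no control, the spread between tumours was the only comparison, it may be partly technical, and nothing here measures an effect of MYC or PMEPA1.

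Hepcidin is a small peptide hormone that hepatocytes secrete into the blood. It binds ferroportin, the iron exporter encoded by Slc40a1, and sends it for degradation, so more hepcidin means less iron released into plasma. The liver raises hepcidin through a BMP and SMAD pathway, in which HFE, transferrin receptor 2 and hemojuvelin take part, and through IL6 and STAT3 in inflammation. Inside cells, iron regulatory proteins bind hairpins in mRNA called iron-responsive elements: bound near the start of ferritin and ferroportin mRNA they block translation, and bound in the tail of Tfrc mRNA they protect it from decay. Levels of ferritin and ferroportin mRNA therefore do not report on this control of translation.

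Mice carry 2 hepcidin genes side by side on chromosome 7 (GRCm38), both on the minus strand and with 3 exons each: Hamp at 30942368 to 30944032 and Hamp2 at 30922372 to 30924681. Hamp encodes the iron hormone, while mouse Hamp2 is not known to regulate iron. Their coding sequences were 92.5% identical, and the end of each, the 75 coding bases before the stop that hold the mature peptide, was 81.3% identical. These ends are shown because they tell the reads of both genes apart; capitals mark the 14 bases that differ (GENCODE M21).
Hamp: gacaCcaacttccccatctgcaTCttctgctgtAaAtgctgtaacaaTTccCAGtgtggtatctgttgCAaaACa
Hamp2: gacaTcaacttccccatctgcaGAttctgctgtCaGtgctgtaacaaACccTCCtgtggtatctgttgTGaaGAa

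The promoters of the pair are also alike, with 89.7% identity over the 250 bases before the start site. Both were searched on both strands for GGCGCC, the core of BMP-responsive elements in hepcidin promoters, for TTCNNNGAA, a STAT-type site, and for CACGTG, the E-box bound by MYC. GGCGCC lay 109 bases before the Hamp start and nowhere in the Hamp2 window, and TTCNNNGAA lay 97 and 94 bases before the starts of Hamp and Hamp2. No window of the pair held CACGTG. The Hamp2 stretch printed below lies within the Hamp2 gene span given above, so its positions hold for the RefSeq start only. Of 32851 RefSeq promoter windows of this length, 9.59% held GGCGCC, 7.02% TTCNNNGAA and 6.02% CACGTG, and 1 of 2 Tfrc windows also held GGCGCC, as did no other member window searched. Trf and Slc40a1 were not searched. A match is only a description of letters. The aligned 100 bases are shown because the base change G34A, counted from 1 at the 5′ end with Hamp first, falls within the BMP-type motif; capitals mark the 2 motifs and the aligned place in Hamp2 (RefSeq, GRCm38.p6, minus strand, chr7:30944069-30944168 and chr7:30924218-30924317).
Hamp: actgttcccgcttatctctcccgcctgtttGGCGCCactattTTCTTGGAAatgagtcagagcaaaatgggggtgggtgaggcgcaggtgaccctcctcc
Hamp2: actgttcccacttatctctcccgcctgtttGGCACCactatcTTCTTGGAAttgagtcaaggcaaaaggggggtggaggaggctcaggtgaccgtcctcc

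Iron-responsive elements were searched in the member transcripts as a C, a stem of 5 pairs and a loop CAGTGN. Matches lay in Fth1, Ftl1 and Slc40a1 before the coding sequence and in Tfrc after it, which had 4 matches. The pattern allows no unpaired base in the stem, so elements of another form would be missed. Of 21877 protein-coding genes, 0.932% had such a match in their longest transcript. The elements are printed because they mark the members that share this control; capitals mark the loop. They lie on GRCm38 at chr19:9982732-9982761 (Fth1, plus strand), chr7:45459778-45459807 (Ftl1, minus), chr1:45925464-45925493 (Slc40a1, minus) and chr16:32631219-32631248 (first of Tfrc, plus).
Fth1: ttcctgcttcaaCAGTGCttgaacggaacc
Ftl1: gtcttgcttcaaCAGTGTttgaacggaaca
Slc40a1: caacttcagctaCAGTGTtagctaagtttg
Tfrc, the first of 4: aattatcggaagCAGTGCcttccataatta

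Read totals over genes were 41547956 to 51939610 per tumour. Levels are given as CPM, reads per 1000000 after TMM scaling, and a count of 3 reads corresponded to 0.0524 to 0.0892 CPM. Hepatocyte markers were present in all 4 tumours: all 12 listed markers passed a mean of 1 CPM, and their summed level was 11290, 11540, 17160 and 36880 CPM in tumours 1, 5, 9 and 10. Tumour 10 stood apart in this list, with 11 of the 12 markers highest there, against 35.8% of all 13129 expressed genes. Tumour 9 held the highest summed erythroid and macrophage marker levels. In bulk tumours, fewer cells of a type and less RNA per cell cannot be told apart.

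Hamp varied more than any other member. It had 48.05, 10.6, 39.2 and 1.22 CPM in tumours 1, 5, 9 and 10, from 2750, 456, 2108 and 41 reads. Tumours 1 and 9 were high, tumour 5 was intermediate and tumour 10 was nearly without hepcidin mRNA, 39.4-fold under tumour 1. The 95% Poisson interval of tumour 10, 0.875 to 1.65 CPM, did not reach that of tumour 5, 9.69 to 11.7 CPM. The mean was 24.8 ± 22.4 CPM (SD, n = 4). Tumour 10 was the tumour with the highest hepatocyte marker level, so the lowest Hamp stood beside the highest Alb, 13400 CPM there against 4520 to 5594 CPM in the others.

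Hamp2 followed another order. It had 0.891, 0.280, 0.130 and 3.60 CPM in tumours 1, 5, 9 and 10, from 51, 12, 7 and 121 reads. Tumour 10, lowest for Hamp, was highest for Hamp2, and tumour 9, second for Hamp, was lowest for Hamp2. Hamp2 passed the filter of a mean of 1 CPM through tumour 10 alone; its mean over the other tumours was 0.434 CPM.

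As a share of the reads of the pair, Hamp made up 98.2, 97.4 and 99.7% in tumours 1, 5 and 9 and 25.3% in tumour 10. The exact (Clopper-Pearson) 95% interval was 18.8 to 32.7% in tumour 10 and lay at 95.6% or above in each of the others. This share does not depend on scaling between libraries, and such intervals cover counting error only. Reads of one gene may be counted on the other: of windows of 50, 75 and 100 bases of the Hamp transcript, 16.6, 3.87 and 0% occur unchanged in Hamp2. Per 100 Hamp reads, Hamp2 had 0.332 reads in tumour 9 and 295 reads in tumour 10. Summed as 1 gene, the pair still had only 4.82 CPM in tumour 10, against 10.9 to 48.9 CPM in the others, a 10.2-fold range. Both genes overlap the annotated gene Gm44662 on the opposite strand, which is not analysed here. Of windows of 50, 75 and 100 bases of the Hamp2 transcript, 26.8, 8.82 and 0% occur in other genes on either strand, Hamp included. Gm44662 led among these genes at 75 bases, while Hamp windows occur in Hamp2 alone. Reads of Gm44662 may thus be counted as Hamp2, and their part in the Hamp2 counts was not tested.

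**Figure D1:**
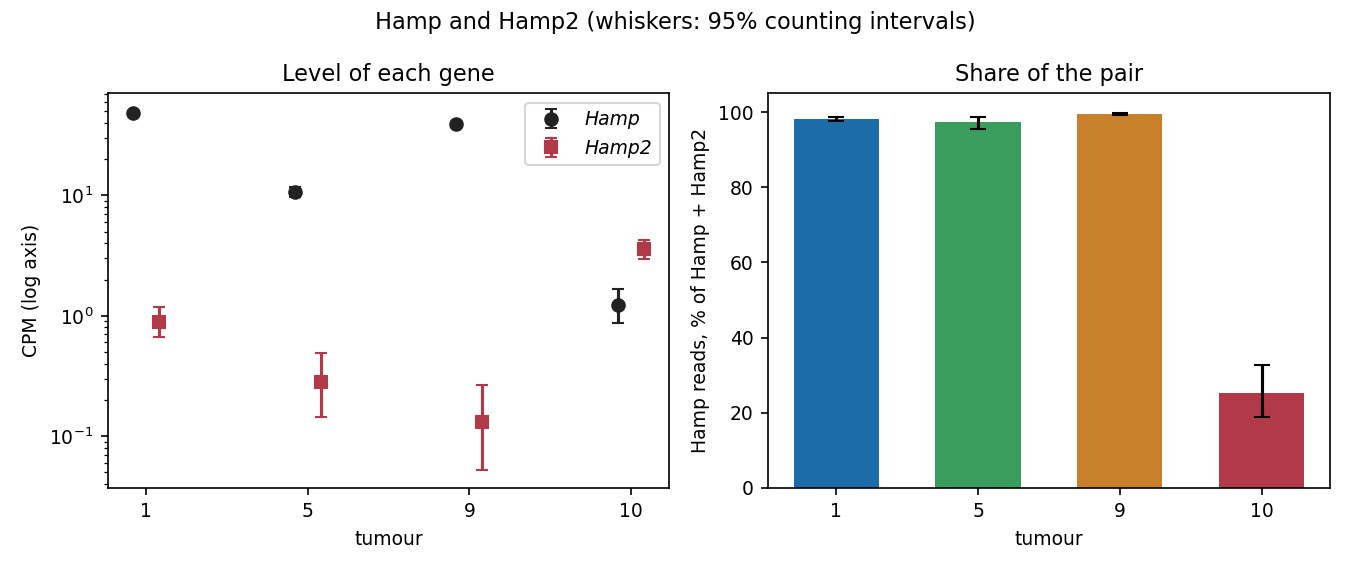
Left, CPM (log axis) of Hamp (circles) and Hamp2 (squares) in tumours 1, 5, 9 and 10; right, Hamp reads as a percentage of Hamp plus Hamp2 reads, whiskers being 95% counting intervals. Hamp is the higher of the pair in tumours 1, 5 and 9, and Hamp2 is the higher in tumour 10, where the Hamp share is 25.3%.

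Upstream of hepcidin, the sensors Hfe and Tfr2 were highest in the tumour with least Hamp. Hfe (NM_010424, chromosome 13, 23702034 to 23710854, minus strand) encodes an MHC class I-like protein that binds transferrin receptors, and it is the gene altered in the common form of human hemochromatosis. It had 12.999, 13.8, 16.6 and 33.4 CPM in tumours 1, 5, 9 and 10. Tumours 1 and 5 overlapped within their 95% counting intervals, and tumour 10 lay 2.57-fold over tumour 1.

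Tfr2 (NM_015799, chromosome 5, 137569840 to 137587481, plus strand) encodes the receptor by which hepatocytes and erythroid precursors sense iron-loaded transferrin. It had 117, 82.6, 164 and 329.7 CPM in tumours 1, 5, 9 and 10. The order ran from tumour 5 through 1 and 9 to 10, and no counting intervals overlapped. Its range of 3.99-fold stood beside the hepatocyte marker sums given above, which were also highest in tumour 10; their part in it was not tested.

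Tfrc (NM_011638, chromosome 16, 32608920 to 32632794, plus strand) encodes transferrin receptor 1, the main route of iron into dividing cells and red cell precursors. It had 449.7, 720.4, 224 and 904 CPM in tumours 1, 5, 9 and 10. Tumour 9 was lowest, 4.03-fold under tumour 10. Erythroid markers were highest in that tumour: all 13 peaked in tumour 9, against 21.6% of all expressed genes. Their summed level was 115, 153, 1166 and 128 CPM in tumours 1, 5, 9 and 10, with Hba-a1 and Hba-a2 holding the same values. The part of erythroid cells in the Tfrc level was not tested. With scaling by total counts, tumour 5 came first, at 743 CPM against 724 CPM in tumour 10. Tfr2 reads per Tfrc read, a ratio free of scaling, were 0.260, 0.115, 0.732 and 0.365 in the same order of tumours.

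Trf (NM_133977, chromosome 9, 103204001 to 103230444, minus strand) encodes transferrin, the plasma carrier of iron made by hepatocytes. Its level was 4710.2, 5468, 5048 and 4112 CPM in tumours 1, 5, 9 and 10. The average was 4835 ± 573 CPM (SD, n = 4). Its levels differed by at most 1.33-fold, and the tumour richest in hepatocyte markers was lowest. Of windows of 100 bases, 77.3% also lie in the overlapping annotated gene Gm20425, so the Trf level is uncertain too.

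Slc40a1 (NM_016917, chromosome 1, 45908068 to 45926523, minus strand), the exporter on which hepcidin acts, had 92.3, 145, 179.6 and 239.7 CPM in tumours 1, 5, 9 and 10. Tumour 1 was lowest and tumour 10 highest, 2.60-fold apart. Scaled by total counts, tumour 9 came first, at 197 CPM against 192 CPM in tumour 10. Macrophages, which recycle iron, also express this exporter. The 14 macrophage and Kupffer cell markers summed to 313, 230.2, 1029 and 423 CPM in tumours 1, 5, 9 and 10, with none of the 14 under 3 reads in any tumour. Of the 13 with a mean of 1 CPM, 10 were highest in tumour 9 and 3 in tumour 1, against 21.6 and 21.4% of all expressed genes. Cd5l, the most abundant, had 88.4, 68.0, 431 and 93.0 CPM. Clec4f, at 20.7, 2.99, 0.745 and 0.208 CPM, had another order. Vsig4, Marco and Timd4, the last under the filter, were likewise highest in tumour 1 and lowest in tumour 10. The part of macrophages and Kupffer cells in the Slc40a1 level was not tested.

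The ferritin genes kept close to each other. Fth1 (chromosome 19, 9980598 to 9985098, plus strand) encodes the heavy chain, which oxidises iron for storage, and had 959, 1155, 1246 and 2168 CPM in tumours 1, 5, 9 and 10. Ftl1 (NM_010240, chromosome 7, 45457944 to 45459884, minus strand) encodes the light chain, which helps to build the iron core, and had 1654, 2170.3, 2084 and 3578 CPM. Both were lowest in tumour 1 and highest in tumour 10, by 2.26-fold for Fth1 and 2.16-fold for Ftl1. Ftl1 reads per Fth1 read were 1.73, 1.88, 1.67 and 1.65, a mean of 1.73 ± 0.10 (SD, n = 4).

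Both ferritin genes have copies elsewhere in the genome. Of 100-base windows, 78.6% of Ftl1 and 0.964% of Fth1 also occur in other annotated genes, led by the pseudogene Ftl1-ps1 for Ftl1, so the Ftl1 level is uncertain. The Fth1 row with most reads was NR_073181, a non-coding accession of 1511 bases. Its coding row NM_010239, of 942 bases, held nearly the same reads, 54866 against 54871 in tumour 1.

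Ireb2 (NM_022655, chromosome 9, 54863789 to 54912530, plus strand) encodes iron regulatory protein 2, which is degraded when iron is plentiful. Its mRNA was at 117, 116, 123 and 99.0 CPM in tumours 1, 5, 9 and 10, the steadiest of the members under TMM but not under total counts, where Fth1 and Ftl1 had a smaller SD of log2 CPM. The highest and lowest tumours were 1.24-fold apart. None of the 5 listed genes of iron regulatory proteins and their turnover, Ireb2 included, had an SD of log2 CPM of at least 1. Of all expressed genes, 16.6% did. Aco1, the gene of iron regulatory protein 1, had 243, 242, 244 and 219 CPM, and Skp1a, a subunit of the ubiquitin ligase that Fbxl5 joins, had 267, 267, 240.4 and 308 CPM. Fbxl5, the adaptor that directs the degradation of Ireb2 protein when iron is present, had 59.9, 45.7, 37.8 and 23.01 CPM and was lowest in tumour 10.

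**Figure D2:**
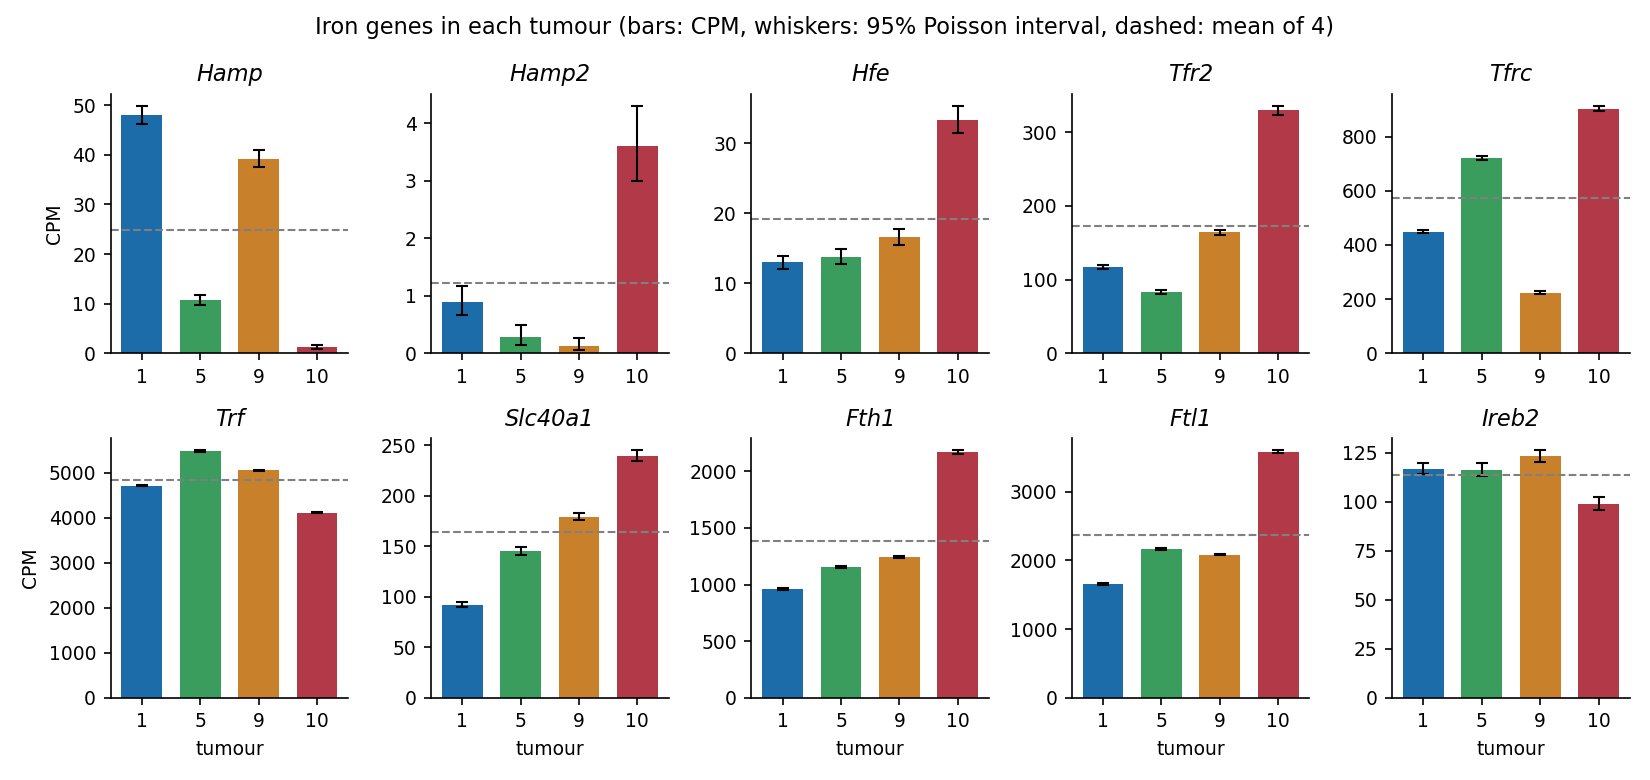
CPM of the 10 members in tumours 1, 5, 9 and 10, each panel with its own axis from 0; bars are single tumours, whiskers 95% Poisson intervals, and the dashed line is the mean of 4. Hamp is lowest in tumour 10 at 1.22 CPM, where Hamp2, Hfe, Tfr2, Tfrc, Slc40a1, Fth1 and Ftl1 are highest under TMM scaling (under total counts, Tfrc is highest in tumour 5 and Slc40a1 in tumour 9).

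Set side by side, 7 of the 10 members were highest in tumour 10 under TMM scaling, where 35.8% of 13129 expressed genes were. Scaled by total counts, 5 of 10 were, against 20.2% of all genes. Both counts include Hamp2, which passed the filter of a mean of 1 CPM through tumour 10 alone. Its highest place there was thus set by the filter. Hamp was highest in tumour 1, Trf in tumour 5 and Ireb2 in tumour 9, as were 21.4, 21.2 and 21.6% of genes. These 3 members were also the ones lowest in tumour 10 under both scalings, where 32.4% of genes were lowest under TMM. Under TMM, 4 members were lowest in tumour 1, 1 in tumour 5 and 2 in tumour 9, against 21.8, 20.3 and 25.5% of genes. Scaling by total counts moved the typical gene by 0.14, 0.04, 0.13 and -0.32 log2 units in tumours 1, 5, 9 and 10, relative to TMM.

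All 10 members varied beyond counting noise in a Poisson heterogeneity test with Benjamini-Hochberg adjustment over all expressed genes, but so did 98.7% of all genes. With 5% technical variation added, all 10 still did, against 94.1% of genes, and Ireb2 had the weakest adjusted p, 0.0307. With 10% added, 8 did, against 77.6%, and Trf and Ireb2 did not, at adjusted p of 0.273 and 0.517. The share of members is thus near that of other genes at each setting.

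The size of the spread set the members apart from each other. The SD of log2 CPM was 2.42 for Hamp and 1.93 for Hamp2. Thus 2 of 10 members reached an SD of 1, against 16.6% of all expressed genes. Of these members, Hamp2 passed the filter through tumour 10 alone. Hamp lay at percentile 97.3 of all genes by this measure. Tfrc (0.89), Tfr2 (0.85), Hfe (0.62), Slc40a1 (0.58), Fth1 (0.51) and Ftl1 (0.47) lay between percentiles 52.9 and 79.9. Trf (0.17) and Ireb2 (0.14) lay at percentiles 10.0 and 5.57 under TMM.

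Tumour 10 carried much of this spread. Without it, the SD was 1.18 for Hamp, 1.25 for Hamp2, 0.18 for Hfe, 0.49 for Tfr2, 0.10 for Trf, 0.19 for Fth1, 0.21 for Ftl1 and 0.04 for Ireb2. Hamp then still spanned 4.54-fold over the other tumours, and Hamp2 no longer had a mean of 1 CPM. The SD of Slc40a1 was 0.36 without tumour 1, and that of Tfrc 0.49 without tumour 9. Scaled by total counts, the SD was 0.37 for Trf, 0.35 for Ireb2, 0.31 for Fth1 and 0.27 for Ftl1.

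**Figure D3:**
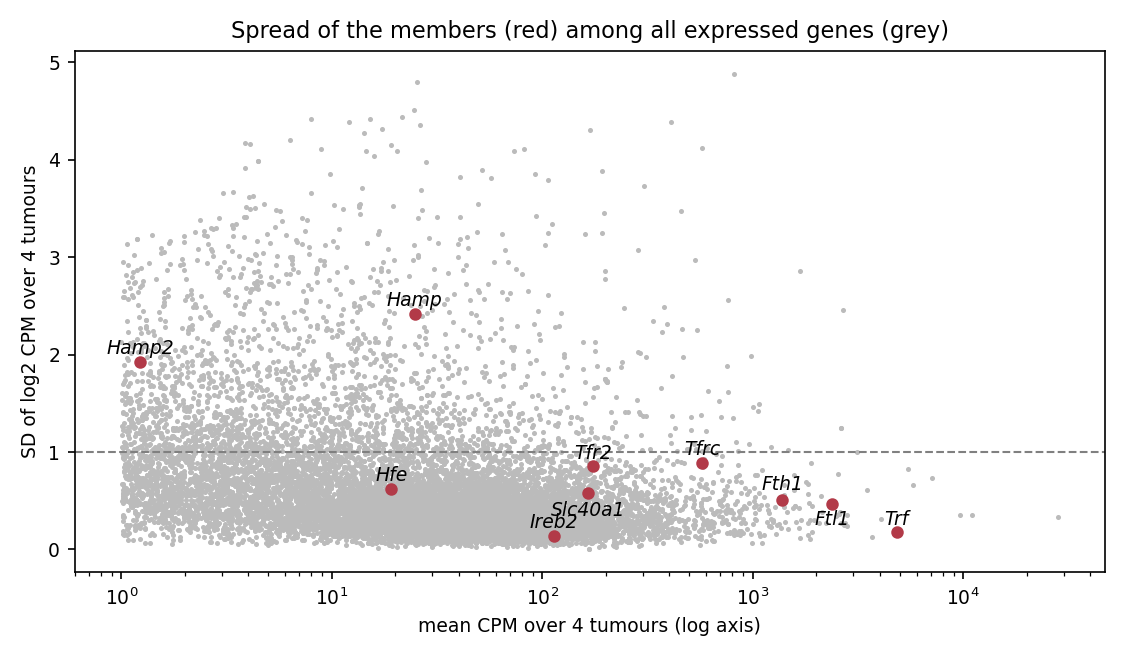
SD of log2 CPM over 4 tumours against mean CPM (log axis) for all 13129 expressed genes (grey) and the 10 members (red); the dashed line marks an SD of 1. Hamp and Hamp2 lie above the line, and Trf and Ireb2 lie near the bottom of the cloud.

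Between genes, levels were compared per kilobase of transcript. Ftl1 had 2445 ± 861, Trf 2073 ± 246 and Fth1 915 ± 356 CPM per kilobase (SD, n = 4 each), the storage and carrier genes thus lying far above the rest. Tfrc had 117 ± 60.8, Hamp 62.9 ± 56.9, Tfr2 49.0 ± 31.0 and Slc40a1 48.6 ± 18.3. Ireb2 had 19.6 ± 1.78, Hfe 11.1 ± 5.56 and Hamp2 2.80 ± 3.70.

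In the order of mean log2 levels (Ftl1, Trf, Fth1, Tfrc, Slc40a1, Tfr2, Hamp, Ireb2, Hfe, Hamp2), 3 of the 9 neighbouring pairs kept their order in all 4 tumours: Trf over Fth1, Fth1 over Tfrc and Hfe over Hamp2. The mean difference was larger than its SD also for Tfrc over Slc40a1, 1.17 ± 0.94 log2 units, and for Ireb2 over Hfe, 0.92 ± 0.75 log2 units (SD, n = 4 each), each in 3 of 4 tumours. The other 4 pairs differed by less than their SD. Ftl1 exceeded Trf in 1 tumour only, by 0.19 ± 0.59 log2 units on average (SD, n = 4). An exact sign-flip permutation test on 4 tumours has 16 sign assignments, 2 of which are as extreme as a full agreement in sign, and so it cannot reach p = 0.05. Without tumour 10, 6 pairs kept their order in the other tumours. By its coding row, Fth1 had 1467 CPM per kilobase, and 2 pairs kept their order.

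**Figure D4:**
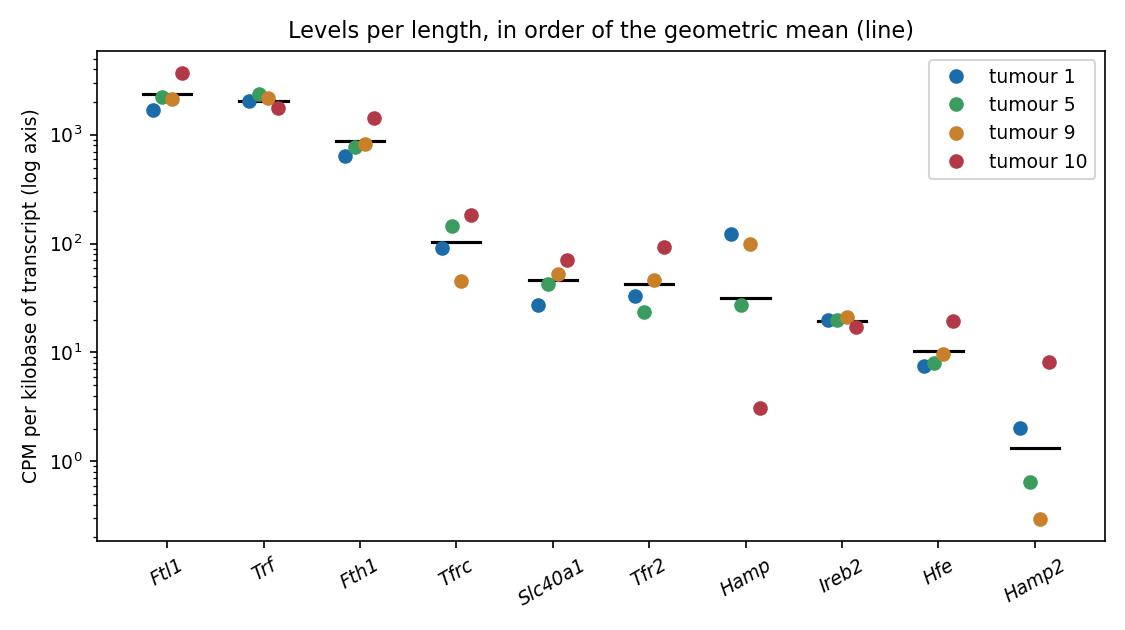
CPM per kilobase of transcript (log axis) of each member in tumours 1, 5, 9 and 10 (points), with the geometric mean as a line. Ftl1, Trf and Fth1 lie above all other members in every tumour, and Hamp spans 3.09 to 122.

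The genes that set hepcidin in other settings did not move as 1 group. Of 17 genes of the BMP and SMAD arm, 15 had a mean of 1 CPM. Of these, 3 had an SD of log2 CPM of at least 1, against 16.6% of all expressed genes: Bmp6, Neo1 and Tmprss6. Bmp6 passed the filter through tumour 10 alone, being under 1 CPM in each of the others. Of the 15, 7 were highest in tumour 1 and 3 in tumour 10, but 4 and 5 with DESeq2 size factors. The list's median deviation from the 4-tumour mean was 0.37, -0.16, -0.05 and -0.46 log2 units in tumours 1, 5, 9 and 10.

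Tmprss6, the hepatocyte protease that cleaves hemojuvelin and so holds hepcidin down, had 28.8, 35.5, 42.1 and 291 CPM in tumours 1, 5, 9 and 10. The value in tumour 10, the tumour with least Hamp and the highest hepatocyte marker level, was far above the other tumours. Hjv, the BMP co-receptor hemojuvelin that Tmprss6 cleaves, had 52.2, 58.7, 108 and 175 CPM and was also highest there. Neo1, a receptor that binds hemojuvelin, was lowest there, with 29.3, 5.60, 12.1 and 0.892 CPM. A link of these levels with Hamp or with hepatocyte content was not tested.

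Among BMP ligands, Bmp6, which endothelial cells of the liver make in response to iron, had 0.734, 0.864, 0.782 and 4.64 CPM in tumours 1, 5, 9 and 10. Bmp2, the other endothelial ligand, had 3.11, 3.55, 1.60 and 1.25 CPM. Bmp6 was thus highest and Bmp2 lowest in tumour 10. The 10 endothelial markers summed to 118, 109, 179.9 and 117 CPM in these tumours, highest in tumour 9. Of the 9 with a mean of 1 CPM, 6 were highest in tumour 9, 2 in tumour 1 and 1, Emcn, in tumour 10. The shares of all expressed genes were 21.6, 21.4 and 35.8%. Clec4g, a marker of liver sinusoids, was under 3 reads in tumour 10 but missed the filter, with a mean of 0.714 CPM. The part of endothelial cells in the ligand levels was not tested.

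Genes that BMP signalling switches on in liver did not share 1 order. Id1, an inhibitor of differentiation, had 14.1, 12.3, 6.25 and 4.25 CPM, and Smad6, a SMAD that damps the pathway, had 6.10, 3.48, 6.59 and 2.14 CPM in tumours 1, 5, 9 and 10. Both were lowest in tumour 10, as were 32.4% of all expressed genes. Smad7, a second damping SMAD, was not, with 13.3, 4.88, 7.78 and 13.3 CPM. Nor was Atoh8, another listed gene of the arm, with 1.49, 0.514, 0.875 and 0.595 CPM and a mean under the filter. Smad4, the SMAD shared by BMP and TGF-beta signals, stayed within 73.4 to 89.5 CPM.

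In the IL6 and STAT3 arm, 6 of 7 genes had a mean of 1 CPM. Against 16.6% of all expressed genes, 1 had an SD of at least 1. This was Il6ra, the IL6 receptor, with 15.2, 6.26, 15.7 and 40.5 CPM in tumours 1, 5, 9 and 10. Il6 itself stayed at or under 0.186 CPM. Stat3 had 150.2, 91.6, 139 and 177 CPM, Il6st, the shared signalling chain, 32.0 to 43.3 CPM, and Jak1, its kinase, 71.7 to 127 CPM.

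Acute phase proteins, liver products that STAT3 induces, were mostly highest where Hamp was lowest. Of 12 such genes, 10 were highest in tumour 10, against 35.8% of all expressed genes (8 of 12 against 20.2% scaled by total counts), and 7 had an SD of at least 1, against 16.6%. Haptoglobin (Hp), which binds free hemoglobin, had 685, 71.5, 124 and 5814 CPM in tumours 1, 5, 9 and 10. The fibrinogen chain Fgb had 1127, 917, 1238 and 3020 CPM, and Fga 1004, 797, 1586 and 2215 CPM. Saa2, a serum amyloid, had 10.96, 0.257, 0.149 and 17.5 CPM. Of the tumours high in Hamp, it was low in tumour 9 but not in tumour 1. These are also hepatocyte products, and the part of hepatocyte content was not tested.

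Signals that lower hepcidin were split. Erfe, erythroferrone, the hormone of red cell precursors that lowers hepcidin, had 11.01, 3.67, 3.57 and 1.99 CPM in tumours 1, 5, 9 and 10. It was highest in tumour 1, where Hamp was highest, and not in tumour 9, where erythroid markers peaked. Egf had 0.419, 2.05, 2.31 and 10.4 CPM, highest in tumour 10. Pdgfb was lowest there, at 19.3, 25.9, 12.4 and 3.48 CPM, and Gdf15, a stress hormone, had 32.6, 22.5, 73.3 and 58.7 CPM. Of 6 listed genes, 5 had a mean of 1 CPM. Of these, 3 had an SD of at least 1, against 16.6% of all expressed genes: Erfe, Egf and Pdgfb.

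**Figure D5:**
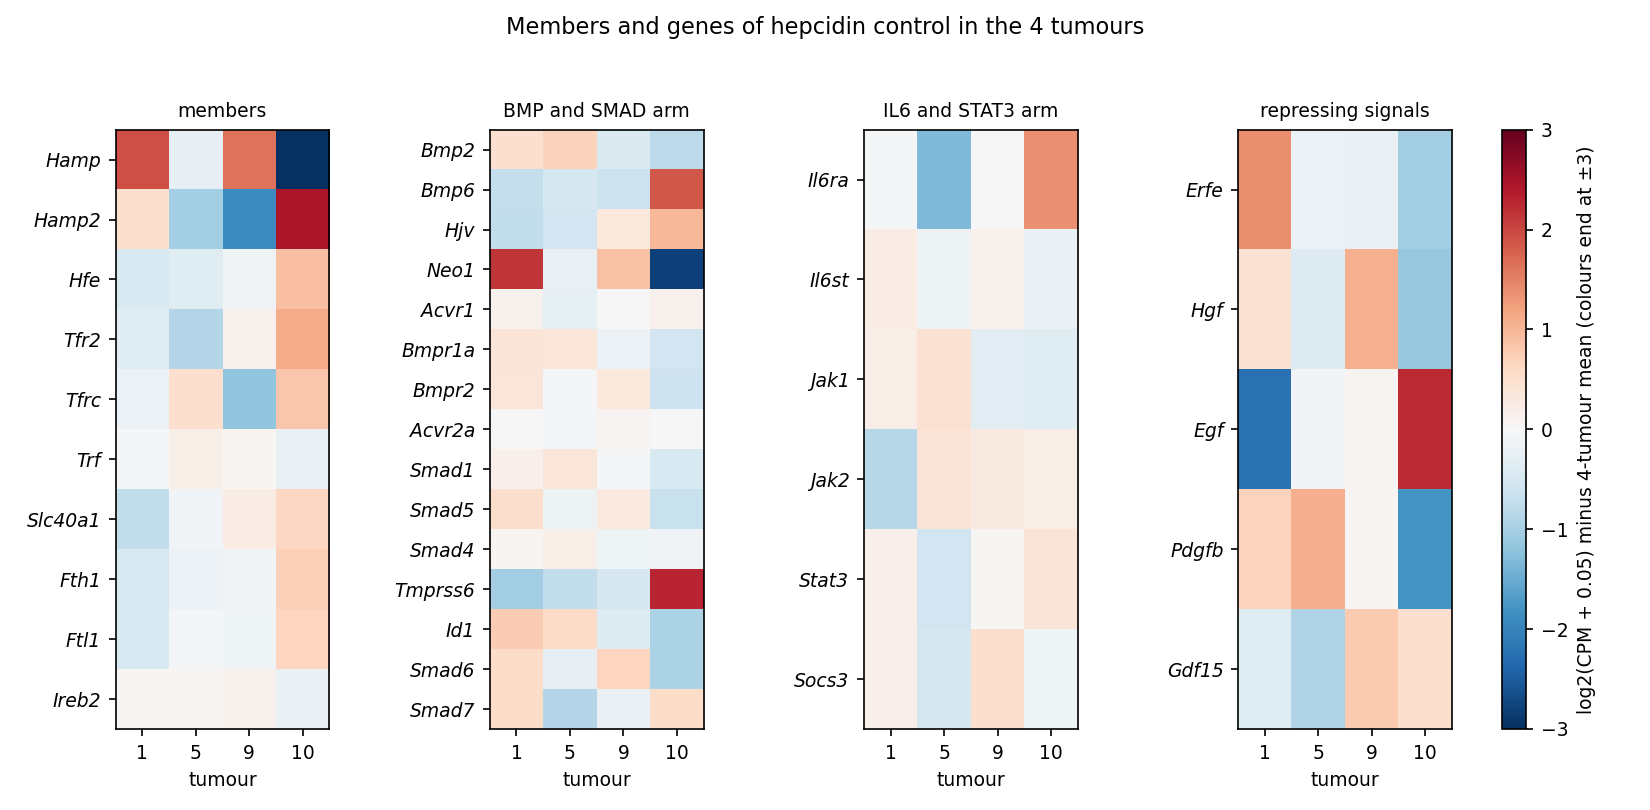
log2(CPM + 0.05) minus the mean over 4 tumours, for the members and the expressed genes of the BMP and SMAD arm, the IL6 and STAT3 arm and the signals that lower hepcidin; columns are tumours 1, 5, 9 and 10, red is above the gene's mean and blue below. Hamp and Neo1 are darkest blue in tumour 10, where Hamp2, Tmprss6 and Egf are darkest red.

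Among genes of iron entry, release and trafficking, 14 of 15 had a mean of 1 CPM. Of these, 4 had an SD of at least 1, against 16.6% of all expressed genes. Ceruloplasmin (Cp), the plasma ferroxidase that helps iron leave cells, had 186, 41.2, 47.0 and 1290.0 CPM in tumours 1, 5, 9 and 10. The iron chaperones Pcbp1 and Pcbp2 were even, at 352 to 564 and 411 to 548 CPM. Named after their values were seen, the importer Slc39a14 had 99.7, 89.9, 73.6 and 186 CPM, and the metalloreductase Steap2 92.5, 60.7, 68.2 and 3.66 CPM. Cp and Slc39a14 were thus highest and Steap2 lowest in tumour 10.

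Heme synthesis, which uses iron, was highest in tumour 10 for 7 of 9 genes, against 35.8% of all expressed genes. Scaled by total counts, only 3 of 9 were, against 20.2%. By that scaling 6 of 9 were highest in tumour 9, against 29.5% of all expressed genes. Alas1, the first and rate-limiting enzyme in liver, had 60.1, 69.1, 49.3 and 635 CPM in tumours 1, 5, 9 and 10. Alad, the second enzyme, had 76.5, 86.3, 63.7 and 204 CPM, and Cpox 167 to 218 CPM. The erythroid enzyme Alas2, named after its values were seen, was highest in tumour 9, at 37.7 CPM against 4.68 to 5.79 CPM in the others.

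Of 10 genes of heme uptake, export and breakdown, 5 were highest in tumour 10 and 4 in tumour 9, against 35.8 and 21.6% of all expressed genes. Scaled by total counts, 3 and 6 were, against 20.2 and 29.5%. Hmox1, the inducible heme oxygenase, had 24.7, 23.3, 96.0 and 41.2 CPM in tumours 1, 5, 9 and 10. Its constitutive relative Hmox2 had 52.0, 59.1, 60.3 and 127 CPM. The macrophage scavenger receptor Cd163 had 9.96, 3.15, 10.9 and 2.26 CPM, and Lrp1, which takes up heme bound to hemopexin, 244, 137, 275 and 306 CPM. Hmox1 peaked with the macrophage and erythroid markers of tumour 9, whose part in it was not tested.

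Over all 9 pathway lists, 91 of 96 genes had a mean of 1 CPM, and 21 of these (23.1%) had an SD of at least 1, against 16.6% of all expressed genes; without tumour 10 there were 12 (13.2%), against 11.4% of all expressed genes. Of the 91, 44 were highest in tumour 10, against 35.8% of all genes, and 28 when scaled by total counts, against 20.2%. The 5 genes with profiles most like that of Hamp, by Euclidean distance of centred log2 CPM over 4 tumours, were Pla2g4c (0.53), Zfp651 (0.65), Wfikkn2 (0.69), Lyve1 (0.79) and Foxj1 (0.88). Lyve1, a hyaluronan receptor, is also on the endothelial list, and Foxj1 is a factor of ciliated cells. Each was lowest in tumour 10, where Pla2g4c had no read and Zfp651 had 0.297 CPM. Foxj1 had 0.0297 CPM and Wfikkn2 0.0595 CPM there, under the 0.0892 CPM of 3 reads. The prior count of 2 weighs on log2 values this low. With 4 tumours many genes share an order, so this likeness is a description only.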

How the data were processed

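The 4 libraries were made from poly-A RNA with the TruSeq RNA kit after Trizol extraction and DNase digestion, per the labels' protocols. Per the submitters' processing notes, the tool FastQC 0.11.8 and the build GRCm38 were used. With aligner, counter and strand setting not given in the sources used here, reads from overlapping genes on opposite strands cannot be told apart. The authors' deposited counts are whole reads per RefSeq transcript row, 33984 rows for 24063 symbols. The deposited FPKM equal the count divided by the file total and by a fixed length, which gave the transcript lengths. The deposited TPM were not analysed further; they summed to 1000000 in tumour 1. Reads were counted on several isoforms: all rows held 1.43 to 1.49 times the gene totals. Each gene was represented by its row with the highest mean count, ties by file order.

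Counts were scaled by TMM in edgeR 4.0.16 (R 4.3.3); DESeq2 1.42.0 served for its size factors, which moved the typical gene by at most 0.01 log2 units. Factors were 1.10, 1.03, 1.10 and 0.80 in tumours 1, 5, 9 and 10, and gene totals 51939610, 41547956, 48931415 and 41948866. log2 CPM used a prior count of 2. A mean of at least 1 CPM counted as expressed, and an SD of log2 CPM of at least 1 as a wide spread. Variation beyond counting noise was tested by a Poisson heterogeneity chi-square over all expressed genes with a threshold of 0.05, and tested on simulated data. No test between conditions was possible with 1 group, and tumours were not split into groups. Intervals cover counting error only.

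The members and the 17 lists (9 of pathways, 8 of cell markers) were chosen with earlier results of these data known. Of the listed genes, 5 were found under an older symbol through RefSeq synonyms. Text names all members, of each pathway list the 3 most abundant genes and the one with the largest SD, some ligands, receptors, inhibitors and targets of the induction and repression lists, which the rule allowed without requiring, and others where stated. Summed levels of the other marker lists were 12.8, 14.2, 582 and 26.7 CPM for neutrophils, 397, 279, 495 and 108 CPM for stellate cells and fibroblasts, 17.2, 6.93, 21.1 and 10.8 CPM for pancreatic acinar cells and 13.6, 15.8, 16.2 and 9.72 CPM for T cells, in tumours 1, 5, 9 and 10. Positions are those of GENCODE M21 on GRCm38.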

Additional observations from a re-analysis of the deposited data

Results flagged for a closer look

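Among 44 quantities checked in the 4 tumours, 5 had 1 tumour set apart. The gap was above Dixon's 95% critical value for the share of the whole range, with log2 CPM used for genes. Checked were the members, the Hamp share and the pathway genes picked for a high mean or the largest SD in these data. For genes picked so, the rate of about 1 in 20 that chance would give does not hold. All 5 flagged quantities were set apart by tumour 10. The Hamp share of Hamp and Hamp2 reads was 25.3% there, with a gap of 0.97 of the range. Tmprss6 had 291 CPM, Alas1 635 CPM and Hmox2 127 CPM there, each above the other tumours. Aco1 had 219 CPM, below the other tumours, although its whole range was only 219 to 244 CPM.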

How the results depend on the processing

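No paired analysis was possible because all 4 libraries form 1 group. All 10 members varied beyond counting noise in every alternative that tested all of them, except with 10% technical variation (8). Leaving out 1 tumour in turn gave 9 to 10 such members, 1 to 3 members and 12 to 21 pathway genes with an SD of at least 1, 3 to 6 ordered neighbours, and a Hamp range of 4.54-fold to 40.6-fold, with the extremes at 1, 12, 6 and 4.54-fold all without tumour 10. Summing rows left 1 member with an SD of at least 1, because Hamp2 then missed the filter. An SD limit of 0.5 gave 7 members and 53 pathway genes. Hamp and Hamp2 summed spanned 10.2-fold. Annotation lengths gave 3 ordered neighbours and the Fth1 coding row, an alternative chosen after seeing the data, 2. Depth limits Hamp2 most, with 7 reads in tumour 9.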

Other observations

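Iron-sulfur cluster assembly, the mitochondrial use of iron for enzyme cofactors, was described by 15 listed genes. All 15 passed the filter of 1 CPM on the mean. None had an SD of log2 CPM of at least 1, against 16.6% of all expressed genes. The median SD was 0.32, against 0.45 over all expressed genes. Of the 15, 10 were highest in tumour 10, against 35.8% of all expressed genes, and 7 when scaled by total counts, against 20.2%. The list's median deviation from the 4-tumour mean was -0.19, -0.06, -0.13 and 0.31 log2 units in tumours 1, 5, 9 and 10. The chaperone Hspa9 had 1226, 1416, 1072 and 1634 CPM in tumours 1, 5, 9 and 10, and Glrx5, a glutaredoxin that passes clusters on, had 244, 299.7, 266 and 392 CPM. Nfs1, the desulfurase that supplies sulfur, stayed within 125 to 159 CPM. Fdxr, the ferredoxin reductase, varied most, with 34.2, 37.1, 62.7 and 136 CPM.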
